A study of Mus musculus with 17 samples.

Results

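lymphH cells with the most transcripts of mitosis genes were described here, 116 of the 348 single cells kept from the lymph node CD44high library. A cell was kept with over 500 genes detected and a mitochondrial share under 10%. The cells were ranked by a score, the summed counts of Mki67, Top2a, Cenpf, Cdk1, Ccnb1 and Ube2c per 10000 counts of the cell, and divided into upper, middle and lower groups of 116. The upper group are the members, and they were compared across all other genes with the lower group. lymphH is a cell line derived from lymph nodes of metastatic female FVB/NJ MMTV-PyMT mice, in which the mouse mammary tumor virus promoter drives the polyoma middle T oncogene in mammary epithelium. Tumor-bearing organs came from 10 mice of 10 to 12 weeks, cells were enriched for cancer cells over 1 month of culture, and cells with high CD44 and high EpCAM at the surface were sorted, so the line had passed through culture before it was measured. Lung lines sorted the same way for CD44high (lungH) or CD44low (lungL), both with high EpCAM, gave the other single-cell libraries. All 3 lines carried the same oncogene, and no untreated or normal cells were measured. The design text gives 1 single-cell replicate per line while the methods state 2 clonal isolates, and the lymphH file is named as merged with no map from cells to isolates, so each line was treated as 1 sample. Bulk RNA sequencing of 14 libraries, 2 clonal isolates for each of 7 groups, came from the same suite of lines.

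Proliferating cells copy their DNA in S phase and divide in mitosis, and cyclins bound to cyclin-dependent kinases drive each step. Transcripts of the G1/S program, under E2F factors, encode the helicase, polymerases and enzymes that make nucleotides. Transcripts of the G2/M program, under the MuvB complex with B-MYB and FOXM1, encode kinetochore, spindle and cytokinesis proteins, and most of them are low in G1 and absent from resting cells. In carcinomas and in cultured tumor lines these genes are the usual way to tell dividing cells from non-dividing ones.

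The 6 score genes gave the members a score of 7.49 to 45.6 with a median of 13.7, the middle group 0 to 7.47, and the lower group 0 in every cell. The cells just inside and just outside the upper limit had scores of 7.487 and 7.467. In all, 135 cells held no count of any score gene, and 19 of them fell in the middle group only because tied cells were taken in the order of the file. Summed over the members, Top2a, the topoisomerase that untangles sister chromatids, stood at 3.72 counts per 10000, Ccnb1, the cyclin of mitotic entry, at 3.06, and Mki67, the Ki-67 antigen, at 2.51. Ube2c, an enzyme of the anaphase-promoting complex, stood at 2.46, Cdk1, the kinase of mitosis, at 2.39, and Cenpf, a kinetochore protein, at 1.59. In the middle group the same genes stood between 0.18 and 0.894. The members were chosen by these values, which are therefore no result.

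**Figure D1:**
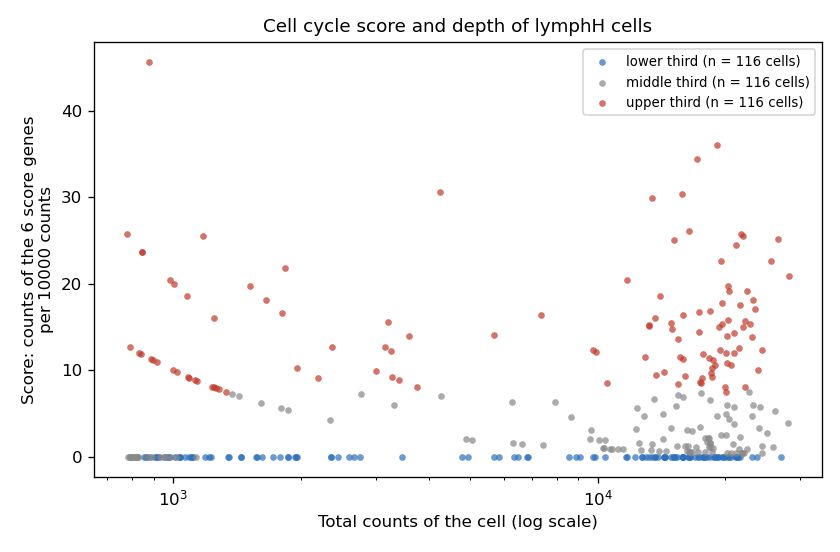
Score of each lymphH cell (counts of the 6 score genes per 10000 counts) against its total counts on a log axis, colored by group. The members form 2 groups by depth: 74 of 116 cells have at least 5000 counts, and 33 have fewer than 3000 and lie partly on curves where 1 or 2 score counts set the score.

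Depth differed among the members. Their counts ran from 778 to 28212 per cell with a median of 15042, against 14710 in the middle and 9790.5 in the lower group, and the pooled totals were 1416545, 1498310 and 1130837 counts. Median genes per cell were 4208, 3962 and 3144, and median mitochondrial shares were 0.627%, 0.744% and 0.74%. Among the members, 33 cells held fewer than 3000 counts, and 17 of these owed membership to a single score count. Deep cells weigh more in the pooled levels, since each level pools the counts of a whole group. Cell barcodes were deposited as running numbers, so barcodes shared between libraries could not be counted.

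The members held epithelial transcripts beside mesenchymal ones. Of 13 epithelial markers, 11 had counts, and their sum was 16.7 per 10000 in the members, 21.6 in the middle and 19.6 in the lower group, with Krt19 and Cldn7 at 0. Cd44 stood at 4.96, 5.31 and 4.42 and Epcam, the sorting marker shared by all lines, at 1.65, 2.06 and 1.69. Of 11 lymphocyte markers only 2 had any count, 24 counts in all, and Ptprc, Cd3e and Ms4a1 were at 0, so the lymph node named in the label left no lymphocyte transcripts beyond these. All 6 endothelial markers were at 0, and 4 of 8 macrophage markers had 189 counts, 0.593 per 10000 in the members and 0.389 in the lower group, with Adgre1, C1qa, C1qb and Fcgr1 at 0. Of the 5 erythroid genes 1 had a single count, and 2 of 10 basal keratin and squamous markers held 75 counts. Of the mesenchymal list 9 of 14 had counts, with a sum of 20.02 per 10000 in the members, 18.8 in the middle and 17.7 in the lower group, and Dcn, Lum, Col3a1, Acta2 and Thy1 at 0.

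Apart from the score genes, 5992 genes had at least 100 counts over the 348 cells. A gene was called higher when its pooled level in the members was at least 1.5 times that in the lower group, and lower at 1/1.5 of it or less, with no test, because 1 library has no replicate. Of these genes 770 (12.9%) were higher and 420 (7.01%) lower, and the median ratio over all tested genes was 1.011. With the study's own minimum of more than 250 genes, 2562 barcodes were kept. The paper reports fewer lymphH cells, so this set differs from the study's own. Only 725 of the 2562 held a score count, and the upper group of 854 then took in 129 barcodes without one. The counts became 1554 higher and 607 lower, with 190 of the 770 and 37 of the 420 kept and 53 and 90 called in the opposite direction, and with all 1837 barcodes at 0 in the lower part they became 581 and 264. Cells thinned to 2000 counts left 906 genes to test, of which 64 were higher and 50 lower. At a ratio of 2, 306 genes (5.11%) were higher and 73 (1.22%) lower. The middle group, set against the same lower group, had 464 genes (7.74%) higher and 183 (3.05%) lower. Score genes and other cell cycle genes vary together in the same cells, so the counts that follow describe the division and do not test it. Where an interval is given, it is an exact conditional 95% interval for a ratio and an exact Poisson 95% interval for a level, both for counting error only. Large ratios without an interval can rest on few counts in the lower group.

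The largest ratio among genes with at least 300 counts was that of Birc5, which encodes survivin, the subunit that brings Aurora B to centromeres and the midbody. Its pooled level was 20.8 counts per 10000 in the members, 4.51 in the middle and 0.486 in the lower group, a ratio of 42.8 (95% interval 32.8 to 56.9). With the study's minimum of more than 250 genes the ratio was 1.27 and did not pass, and only 2 of the 15 largest and 1 of the 15 smallest ratios among genes with at least 300 counts kept their call. Among cells with at least 5000 counts, Birc5 ran from 5.95 to 51.1 with a median of 20.5 in the 74 members, from 0 to 20.1 with a median of 2.79 in 87 middle cells, and from 0 to 4.39 with a median of 0 in 68 lower cells. Every deep member thus lay above every deep cell of the lower group for Birc5, a gene that the score did not hold. After each cell was thinned to 2000 counts, 97.6% of 85 members held a Birc5 count against 42.4% of 92 middle and 6.49% of 77 lower cells. Without thinning, the shares were 87.1%, 65.5% and 26.7% of 116 cells each. The gene lies at chr11:117849251-117855743 on the plus strand of mm10 and overlaps no other annotated gene.

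The other genes with the largest ratios came from both programs. Pclaf, the PCNA-associated factor, had a ratio of 30.5 (18.6 to 53.7), with 4.31 counts per 10000 in the members and 0.141 in the lower group. Cip2a, an inhibitor of the phosphatase PP2A, had a ratio of 23.5, Cenpa, the histone H3 of centromeres, one of 20.6, and Ccna2, cyclin A2, one of 18.2. Anln, which encodes anillin of the contractile ring, had 17.8, Smc2 of condensin 15.4, and Racgap1 of the central spindle 11.7. Hmgb2, a DNA-bending chromatin protein, had 10.2, and the nucleotide enzymes Rrm2 and Tk1 had 8.99 and 8.4. Tcf19, a transcription factor gene, had 11.9. Hist1h2ao, a gene of the multicopy H2A family, had 20.2, but its reads cannot be told from those of near-identical copies, and 1 middle cell held 65.2 counts per 10000 of it, more than any deep member at 13.9. Rccd1 had 17.6, and its gene overlaps Prc1 on the opposite strand by 21810 bases. Prc1, the crosslinker of spindle midzone microtubules, had 14.3, and the strand setting of the counting is not given in the sources used here, so reads of these genes cannot be told apart. The same holds for Pclaf and Tk1, which are overlapped on the opposite strand over 13030 bases by Trip4 and over 10567 bases by Afmid or the gene model Gm20708.

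**Figure D2:**
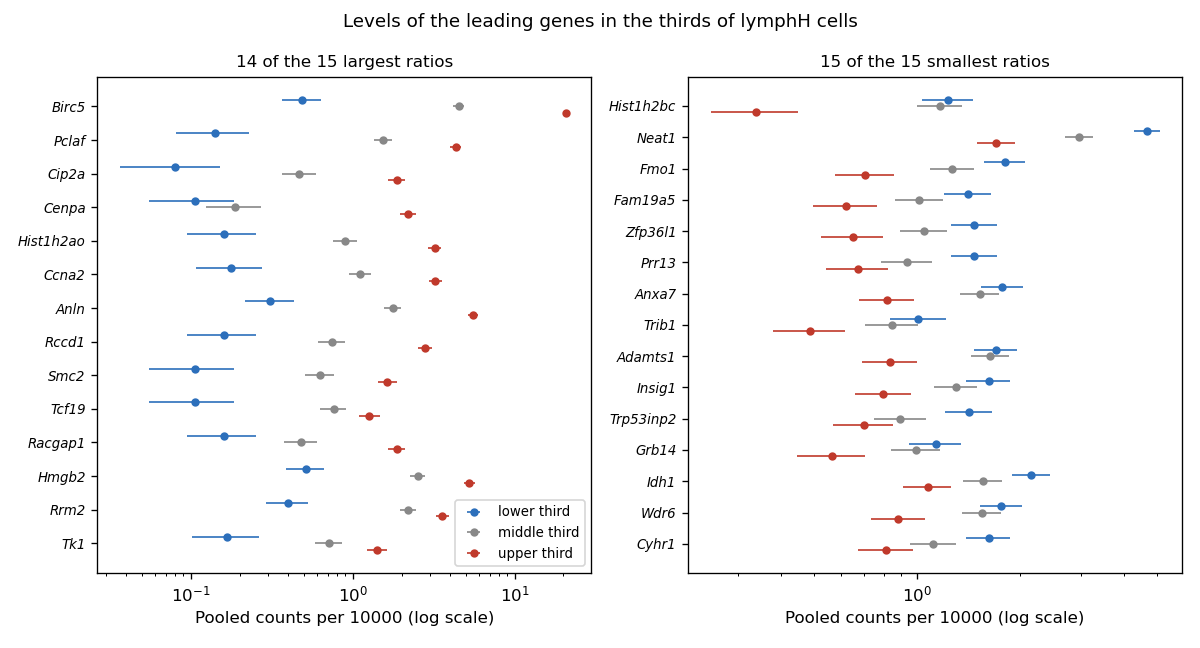
Pooled counts per 10000 (log axis) of 14 of the genes with the 15 largest ratios and of those with the 15 smallest ratios among genes with at least 300 counts, in the lower, middle and upper group of lymphH cells. Points are pooled levels and bars exact Poisson 95% intervals; the middle group lies between the other groups for all 14 genes on the left, and for Cenpa it lies near the lower group.

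The tested mitotic kinases and cyclins were all on the higher side. Of the 16 genes of this list, none of them in the score, 8 were tested and 8 were higher, with a median ratio of 15.2. Genes nearly absent from the lower group met the count minimum mainly through the other groups, so such calls and medians depend in part on that minimum. The joint median of the 5 mitosis lists, 10.3, was 3.67 with at least 300 counts and 11.2 with no filter on counts. Plk1, Polo-like kinase, stood at 1.37, 0.214 and 0.0265 counts per 10000 in the upper, middle and lower group, a ratio of 51.6 with 3 counts in the lower group and an interval of 17.4 to 253. Aurka, Aurora A, had a ratio of 14.5. Pbk had 15.9 and the kinase subunits Cks1b and Cks2 had 4.18 and 4.86. Wee1, which restrains Cdk1, had the smallest ratio of the list, 1.92. Melk had 83 counts in the members and 1 in the lower group, a ratio of 66.3 with an interval of 11.6 to 2648.

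Kinetochore and spindle genes followed. Of 11 tested kinetochore and centromere genes 9 were higher with a median ratio of 17.2, among them Nuf2 at 30.5, Knstrn at 20.3, Spc25 at 17.2 and Hjurp, the chaperone of centromeric histone, at 7.85. Zwint, at 1.12, and Mis12, at 1.47, did not pass. With the study's minimum of more than 250 genes the median of the list was 0.973. All 7 tested spindle checkpoint and passenger complex genes were higher with a median of 16.6: Cdca8 at 34.7, Aurkb, the kinase of the passenger complex, at 25, Incenp at 10.2, Mad2l1 at 6.64 and Bub3 at 2.22. The largest of these ratios rest on few counts in the lower group, where only 2 cells held an Aurkb count. Of 22 spindle, motor and cytokinesis genes 21 were higher with a median of 11.9, from the kinesins Kif4 at 22.9, Kif11 at 22.4 and Kif20a at 7.28 to the tubulins Tuba1b at 2.63 and Tubb5 at 2.65. Numa1, at 0.939, was the one that did not pass. Hmmr had 46.3 (12.5 to 387) with 2 counts in the lower group, and Tacc3 had 1 count there and a ratio of 86.2 (15.1 to 3437). Of 12 condensin and cohesin genes 10 were higher with a median of 3.65, led by Smc2 and Ncaph at 10.4, and the cohesin subunit Rad21 stood at 3.67.

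Of 7 tested transcription factors of the cycle 7 were higher, with a median of 15. Foxm1, the activator of G2/M genes, had a ratio of 27.7 (12.5 to 76.3), Mybl2, which encodes B-MYB, one of 20.6, and Lin54, the DNA-binding subunit of MuvB, one of 15. E2f8, a repressive E2F, had 58 counts in the members, 56 in the middle and 0 in the lower group, and was at least 15.4-fold higher in the members against a floor of 3 counts, and the median of the list is the same with E2f8 at this bound. E2f1 and Tfdp1, the partners that activate G1/S genes, had 2.15 and 2.84.

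Of 15 genes of the anaphase-promoting complex and related ubiquitin enzymes, 7 were higher and 0 lower, with a median of 1.46. Fbxo5, the inhibitor Emi1, had 35.1 (9.44 to 295) with 2 counts in the lower group, Uhrf1, a reader of hemimethylated DNA, had 7.87, and the coactivator Fzr1 had 2.25. With the study's minimum of more than 250 genes, Fbxo5 and Fzr1 turned to 0.664 and 0.88. The core subunits Cdc16, Anapc11, Anapc15 and Cdc27 passed with 1.73, 1.68, 1.56 and 1.51, and the other 8 core subunits had ratios of 0.744 to 1.46.

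Replication genes were higher as well, by smaller ratios in the pooled counts. The medians of the mitosis and S phase lists, 10.3 and 2.75, were 2.04 and 2.08 in cells thinned to 2000 counts, over the fewer genes that could be tested, and 1.17 and 1.12 with more than 250 genes. Of 16 origin licensing and firing genes 15 were higher with a median of 3.15, and of the MCM helicase Mcm5 had a ratio of 5.4, Mcm3 3.73, Mcm4 3.17, Mcm7 3.12, Mcm2 2.75 and Mcm6 2.66. Cdc45, which completes the helicase, had 11, Gmnn, the inhibitor of licensing, 6.39 and Cdt1, the licensing factor it binds, 1.71. Of 18 replication fork genes 16 were higher with a median of 2.46, from Lig1, the ligase, at 8.69 to the sliding clamp Pcna at 2.91. Ung, the uracil glycosylase, was the 1 gene called lower, at 0.585 with 11 and 15 counts and an interval of 0.243 to 1.36 that includes 1. Of 15 nucleotide synthesis genes 12 were higher with a median of 2.13, among them Rrm2 and Tk1, with Rrm1 at 5.11 and Nme1 at 0.913. All 9 tested DNA repair genes were higher with a median of 3.56, among them Rad51ap1 at 8.87.

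**Figure D3:**
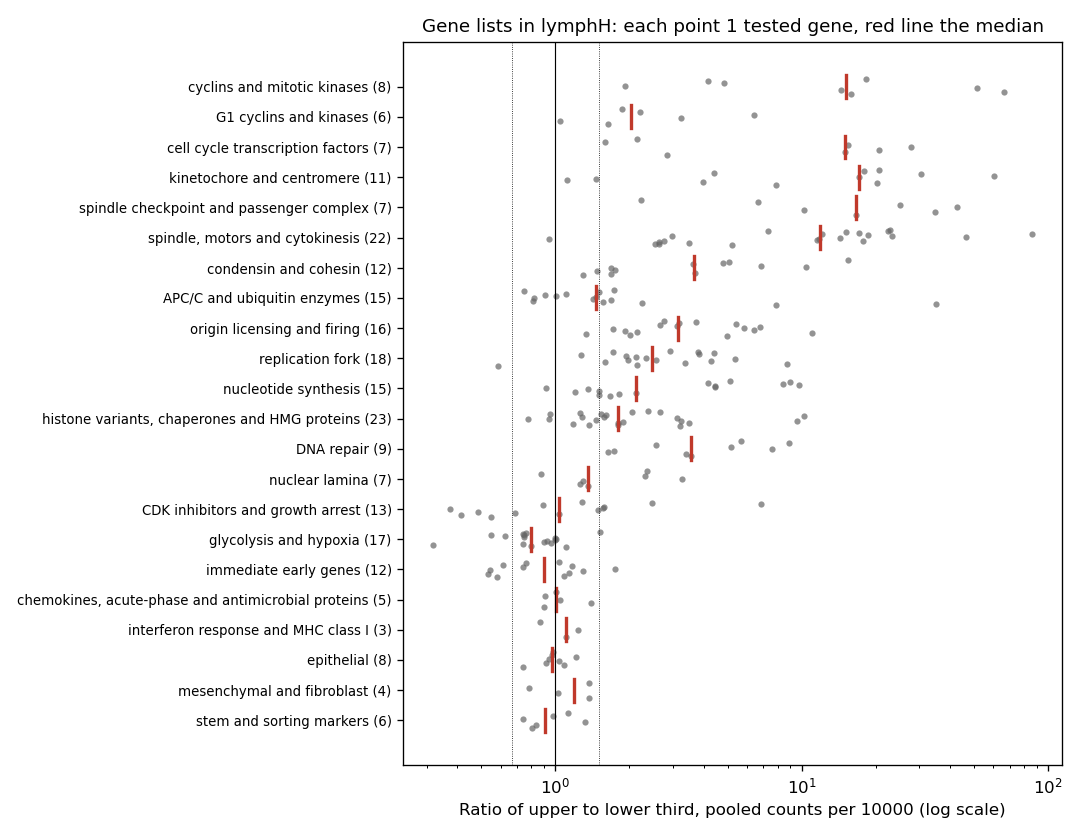
Ratio of the upper to the lower group of lymphH cells (log axis) for each tested gene of each list, with the number of genes in brackets, the list median as a red line and the calling limits as dotted lines. The kinase, kinetochore, checkpoint and spindle lists center above 10, the condensin and cohesin list and the replication lists between 2 and 4, and the lists of other functions near 1; E2f8 is drawn at its bound of 15.4.

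The middle group stood differently in these programs. The groups were cut on a score of mitosis genes, so a larger step to the members in the mitosis lists follows in part from the division. As a whole, the 58 genes of the 3 S phase lists had a summed level of 74.8 counts per 10000 in the members, 64.3 in the middle and 30.8 in the lower group, and the 107 of the 5 mitosis lists, which hold no score gene, had 171, 74.98 and 41.0. Over the tested genes, 49 and 60, the median step from lower to middle group was 2.45 for the S phase lists and 2.89 for the mitosis lists. The median step from middle to upper group was 1.17 and 2.6. Both sets of lists thus had a larger median step from lower to middle than from middle to upper group, the S phase lists by a wider margin. In 16 of the 49 S phase genes the middle group was above the members, against 2 of 60 mitosis genes. Mcm6 stood at 1.36, 1.91 and 0.513 counts per 10000 in the upper, middle and lower group, Cdc6, the licensing factor, at 0.311, 0.581 and 0.0531, Cdt1 at 0.621, 1.16 and 0.363, and Ccne1, cyclin E1, at 1.07, 1.2 and 0.168. Ung was 0.0777, 0.594 and 0.133.

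Of the 770 genes higher in the members, 248 (32.2%) were already at least 1.5 times the lower group in the middle group. In the members these were less than 1.5 times the middle group, some of them below it. Another 149 (19.4%) were less than 1.5 times the lower group in the middle group and at least 1.5 times the middle group in the members. Both steps were taken by 111 (14.4%), and 262 (34%) took neither step in full. This grouping was chosen after the values were seen. Among genes with at least 300 counts, the early group included Uhrf1, Ccne1, Mcm5 and Atad2, and the late group by Arl6ip1, H1f0, the unnamed gene model Gm47939, Tubb4b and Dctpp1, after which came Kpna2 and Cdkn2c. Arl6ip1 stood at 4.11, 1.5 and 1.49 counts per 10000 in the upper, middle and lower group, and H1f0, the linker histone H1.0, at 3.52, 1.06 and 1.32. Ccnd1, cyclin D1, stood at 10.3, 5.77 and 5.51, whereas its kinase Cdk4 had 6.33, 5.97 and 6.08.

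Single cells were also compared at equal depth. Cells were thinned to 2000 counts, which left out 31 members, 24 middle and 39 lower cells that were shallower. The median count of the mitosis lists was then 32 in the members (16 to 60), 15 in the middle (1 to 40) and 7 in the lower group (1 to 20). The median count of the S phase lists was 15 (5 to 32), 12.5 (1 to 25) and 6 (2 to 18). Every thinned member held at least 16 counts of mitosis genes, and the ranges of the members and the lower group overlapped between 16 and 20. Median genes per thinned cell were 1246, 1221 and 1191.

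**Figure D4:**
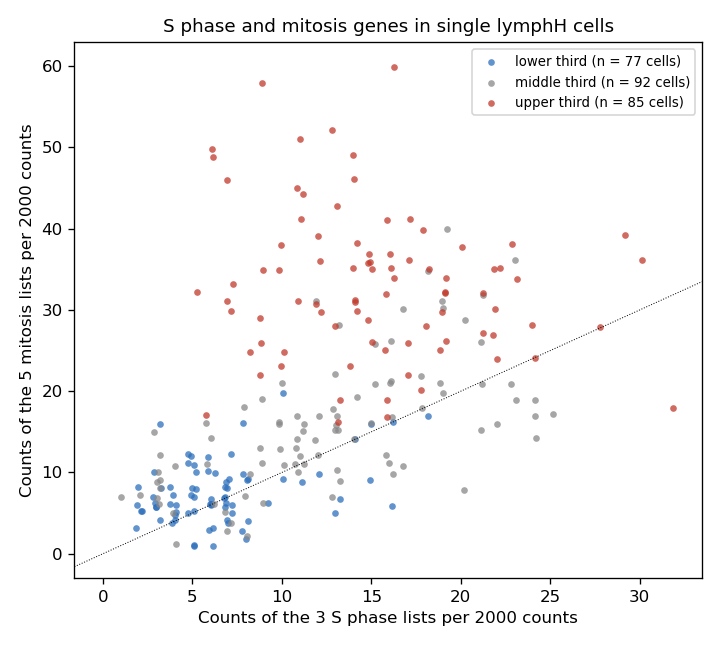
Counts of the 5 mitosis lists against counts of the 3 S phase lists in single lymphH cells thinned to 2000 counts, with points shifted by up to 0.25 so that equal values can be seen and a dotted line of equal counts. Lower group cells gather at the lower left, middle group cells spread along the dotted line, and members lie mostly above it, between 16 and 60 mitosis counts and 5 and 32 S phase counts.

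Chromatin genes and the nuclear lamina moved in part. Of 23 histone variant, chaperone and HMG genes 15 were higher with a median of 1.8: after Hmgb2 came Asf1b, a histone chaperone, at 9.58, Hat1 at 3.49, Chaf1b of CAF-1 at 3.25, Dek at 3.21, Hmgn2 at 3.11 and H2afz, the variant H2A.Z, at 2.38. H3f3a, which encodes H3.3, had 0.951 and Hmga2 0.946. Of 7 lamina genes 3 were higher: Tmpo at 3.26, Lmnb2 at 2.36 and Lbr at 2.31, whereas Lmna, lamin A/C, had 0.872. Over all tested genes 12.9% were higher.

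Inhibitors of the cycle were split. Of 13 tested CDK inhibitor and growth arrest genes 4 were higher and 4 lower, with a median of 1.03, where 12.9% of all tested genes were higher and 7.01% lower. Cdkn2d, the inhibitor p19INK4d of Cdk4 and Cdk6, stood at 1.21 counts per 10000 in the members, 0.174 in the middle and 0.177 in the lower group, a ratio of 6.83 (4.28 to 11.5), and Cdkn2c, p18INK4c, had 2.47. Btg2 had 1.58 and Ccng1, a p53 target, 1.56. Ccng2, an atypical cyclin of arrested cells, stood at 0.311, 0.567 and 0.831, a ratio of 0.374, and Trp53inp1, Gadd45b and Tob1 had 0.412, 0.486 and 0.548. With the study's minimum of more than 250 genes, Gadd45b, Tob1 and Cdkn2c turned to 1.59, 1.48 and 0.985. Ccng2, Cdkn2d, Btg2 and Ccng1 then lost their calls at 0.846, 1.28, 1.02 and 1.2. Cdkn1a, which encodes p21, had 1.28.

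The lowest ratios among genes with at least 300 counts began with Hist1h2bc, an H2B histone gene, at 0.339 counts per 10000 in the members, 1.17 in the middle and 1.23 in the lower group, a ratio of 0.276 (0.194 to 0.385). With the study's minimum of more than 250 genes most of the genes in this paragraph turned above 1, among them Hist1h2bc at 1.75 and Mxd4 at 1.29. Of the deep cells, 19 of 74 members held a count of Hist1h2bc against 42 of 68 lower cells. Neat1, the long noncoding RNA of paraspeckles, stood at 1.7, 2.97 and 4.68, a ratio of 0.364 (0.311 to 0.424), with medians of 1.26, 2.23 and 3.34 in deep cells of the 3 groups, which overlapped. Fmo1, a flavin monooxygenase, had 0.391, Fam19a5 0.442 and Zfp36l1, an RNA-binding protein that speeds mRNA decay, 0.442. Prr13, Anxa7, Trib1, Adamts1, Insig1, Trp53inp2, Grb14, Idh1, Wdr6 and Cyhr1 had ratios of 0.457 to 0.502. Gene models on the opposite strand overlap most or all of Zfp36l1 and Prr13, whose reads cannot be told from theirs. Insig1 holds back sterol synthesis, Idh1 is the cytosolic isocitrate dehydrogenase, and Adamts1 is a secreted protease. Mxd4, a partner of MAX that opposes MYC, had fewer counts and was picked out after its values were seen: it stood at 0.169, 0.687 and 0.964, a ratio of 0.176 (0.108 to 0.275). In deep cells, 18 of 74 members, 50 of 87 middle and 54 of 68 lower cells held a count of Mxd4.

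Lists of other functions held fewer genes that were higher than the cell cycle lists did. Of 17 glycolysis and hypoxia genes 1 was higher, Slc2a1 at 1.52, and 3 were lower, Aldoa at 0.626, Pfkl at 0.546 and Ndrg1 at 0.319, with a list median of 0.798; Gapdh, Pgk1 and Pgam1 had 0.995, 1.01 and 0.999. Of 12 immediate early genes Egr1 was higher at 1.75, and Fosl2, Atf3, Klf4 and Myc were lower at 0.611, 0.541, 0.532 and 0.581, where 7.01% of all tested genes were lower. With the study's minimum of more than 250 genes, Atf3 and Myc turned to 1.36 and 1.44. Egr1 then fell below the limit at 1.48, and the list median was 1.05. None of 5 chemokine, acute-phase and antimicrobial genes, 3 interferon and MHC class I genes, 8 epithelial, 4 mesenchymal, and 6 stem and sorting genes passed in either direction, with list medians from 0.907 to 1.19. Most genes did not pass: of all 5992 tested genes 4802 were neither higher nor lower, so these short lists do not stand out. Vim, vimentin, had 1.37 and Cd24a 0.742. Of 80 ribosomal protein genes 0 were higher and 1 lower, and their median ratio was 0.847, with a summed level of 1227 counts per 10000 in the members and 1454 in the lower group.

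Depth moved with the levels of the members. The 74 deep members had 173 counts per 10000 of mitosis genes and 21.2 of Birc5, whereas the 33 members under 3000 counts had 106 (96.1 to 116) and 9.97 (7.12 to 13.6). Lower group cells under 3000 counts had 63.4 and 3.93, against 39.7 and 0.285 in the deep ones. The 26 middle group cells under 3000 counts had 91.3 (80.8 to 103) and 9.06 (5.97 to 13.2), against 74.3 and 4.39 in the deep ones. The intervals of the shallow middle cells overlapped those of the shallow members. The shallow cells of the 3 groups thus lay closer together than the deep ones. The part of free RNA in these levels was not tested. Among cells with at least 5000 counts, divided anew into groups with 76 cells at each end, 754 genes were higher and 380 lower, with median ratios of 13.1 for the mitosis and 2.91 for the S phase lists.

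The same division was made in the lung libraries, where 73 of 221 lungH cells and 78 of 235 lungL cells formed the upper group. In lungH 574 of 3257 tested genes (17.6%) were higher and 439 (13.5%) lower, and in lungL 655 of 4184 (15.7%) and 755 (18.0%). Of 3099 genes tested in both lymphH and lungH, 220 were higher in both, 63% of the 349 of lymphH and 39.8% of the 553 of lungH, and 66 were lower in both, 42.6% of the lymphH and 16.8% of the lungH genes. Higher in one and lower in the other were 10 and 5 genes. With lungL 171 of 3760 genes were higher in both, 46.8% of 365 and 27.3% of 626, and 76 lower in both, whereas 36 were higher in lymphH and lower in lungL and 15 the reverse. The lungL groups also differed in depth and in other markers. The lower group took 78 of the 139 lungL cells without a score count, in file order, and its shallowest cell held 7319 counts, against 920 in the upper group. Mesenchymal genes summed to 119 counts per 10000 in the upper and 172 in the lower lungL group, with 5 of 10 tested lower and 2 higher, and 2 of 3 tested epithelial genes were higher, and the part of these differences in the lungL values was not tested. The libraries differed in depth and the difference between lines was not tested.

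The mitosis lists had a median ratio of 9.1 in lungH (43 genes, 41 higher) and 1.98 in lungL (27 genes, 20 higher), and the S phase lists 3.25 (32 genes) and 4.66 (26 genes), against 10.3 and 2.75 in lymphH. Summed levels in the upper groups were 243 counts per 10000 of mitosis genes in lungH, 115 in lungL and 171 in lymphH. Birc5 stood apart in level: 20.8 counts per 10000 in the lymphH members against 4 in lungH and 1.8 in lungL, with ratios of 42.8, 31.1 and 29.8 to the lower groups. Pclaf had ratios of 30.5, 77 and 20.2, Cenpa 20.6 in lymphH and 10.1 in lungH, and Foxm1 27.7 and 37.1, both with fewer than 100 counts in lungL. Among the lower genes, Hist1h2bc had 0.276, 0.171 and 0.382 in lymphH, lungH and lungL, Neat1 0.364, 0.375 and 0.836, and Mxd4 0.176, 0.19 and 0.36. Cdkn2d had 6.83 in lymphH and 9.29 in lungH, and Ccnd1 1.86, 1.19 and 3.55.

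**Figure D5:**
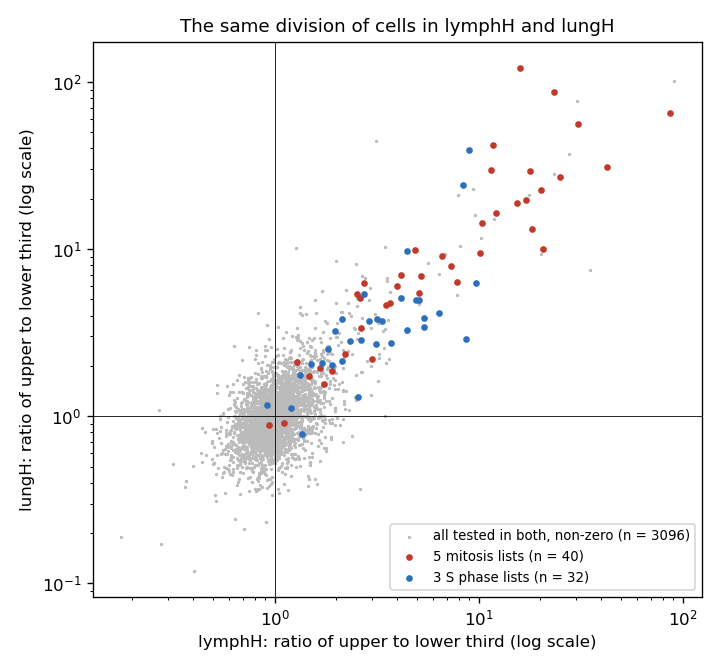
Ratio of the upper to the lower group in lungH against that in lymphH (both axes log) for 3096 genes tested in both libraries with counts in every group compared, with the 40 mitosis list genes in red and the 32 S phase list genes in blue. Red and blue points lie mostly at the upper right, red ones farther out, and Mxd4, Hist1h2bc and Neat1 are among the points at the lower left.

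In the bulk libraries the 2 isolates of LN CD44high lay close together for Birc5, Cdk1 and Top2a but not for every gene, since Anln stood at 97.2 and 153 TPM and Neat1 at 14.4 and 6.7. Birc5 was 3601 and 3645 TPM (transcript abundance scaled to the same total in each library) in LN CD44high, 2641 and 3561 in BM CD44high, 4172 and 2714 in BM CD44low, 161 and 146 in MFP, the primary tumor of the mammary fat pad, and 0.45 and 8.88 in Lung CD44high. LN CD44low held 2496 and 345, and the second of these isolates was also the lower for all 6 score genes. Cdk1 was 328 and 379 TPM in LN CD44high and 1.64 and 25.3 in Lung CD44high, and Top2a 99.2 and 99 against 0.68 and 8.37. Bulk Lung CD44high values of these 3 genes were thus far below those of LN CD44high. For the score over 6 genes, though not for Birc5, the order was the other way in the single cells, where the median score over all kept cells, before any division, was 4.74 in lungH with 78 of 221 cells at 0 and 1.54 in lymphH with 135 of 348 at 0. Hist1h2bc ran the other way, at 15 and 10.1 TPM in LN CD44high and 260 and 313 in Lung CD44high. Rccd1, with a ratio of 17.6 in the cells, was 2.25 and 3.16 TPM in LN CD44high and between 0.86 and 4.65 TPM in all other libraries. In bulk, fewer cycling cells and less RNA per cycling cell cannot be told apart.

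G2/M promoters commonly hold a CCAAT box and a cell cycle homology region, and G1/S promoters an E2F site. RefSeq windows from 250 bases before to 50 after the start (GRCm38.p6) were searched on both strands for CCAAT as the box, for TTTGAA as the homology region and for GGCGGGAA or alternatively GGCGCGAA as the E2F site. CCAAT and TTTGAA can share a terminal T, and matches were counted whether or not they overlapped. CCAAT was in 45.3% of the 750 windows of genes called higher, 38.6% of the 425 of genes called lower and 37.4% of all 32851. TTTGAA was in 18.8%, 8.71% and 17.9%, and an E2F site in 10.4%, 3.06% and 2.7%; over the 5984 windows of tested genes the shares were 37.6%, 10.8% and 5.38%. Of the 52 windows of the mitosis lists 71.2% held CCAAT, 53.8% TTTGAA, 50% both and 0% an E2F site. Of the 50 windows of the S phase lists 56% held CCAAT, 12% TTTGAA, 4% both and 20% an E2F site. Windows matched 620 of the 770 higher and 318 of the 420 lower genes.

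Smc2, Racgap1 and Hmgb2 are shown because they have the largest ratios, 15.4, 11.7 and 10.2, among called genes with at least 300 counts whose window holds both CCAAT and TTTGAA. Cenpa, with both, was left out because the stretch overlaps an annotated exon. Each is the 250 bases before the start in RefSeq, 5′ to 3′ on the strand of the gene, with matches to CCAAT and to TTTGAA on either strand in capitals: Smc2 at chr4:52438971-52439220 on the plus strand, Racgap1 at chr15:99651657-99651906 on the minus strand and Hmgb2 at chr8:57511593-57511842 on the plus strand.
Smc2: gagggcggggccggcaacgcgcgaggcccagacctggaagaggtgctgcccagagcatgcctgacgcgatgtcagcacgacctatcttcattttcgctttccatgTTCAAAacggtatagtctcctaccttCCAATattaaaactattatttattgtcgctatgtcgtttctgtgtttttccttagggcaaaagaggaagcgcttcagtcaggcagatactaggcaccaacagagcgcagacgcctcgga
Racgap1: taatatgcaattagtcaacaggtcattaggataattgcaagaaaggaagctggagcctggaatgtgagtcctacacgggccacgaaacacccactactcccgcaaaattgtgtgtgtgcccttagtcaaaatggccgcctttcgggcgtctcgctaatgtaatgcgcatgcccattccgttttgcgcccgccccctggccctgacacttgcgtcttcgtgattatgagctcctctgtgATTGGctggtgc
Hmgb2: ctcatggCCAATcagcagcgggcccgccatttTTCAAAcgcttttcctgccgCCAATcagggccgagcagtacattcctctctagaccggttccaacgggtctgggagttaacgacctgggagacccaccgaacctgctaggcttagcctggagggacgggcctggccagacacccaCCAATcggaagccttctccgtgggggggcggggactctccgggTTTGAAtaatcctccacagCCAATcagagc
Hmgb2 holds 4 CCAAT boxes, which begin 243, 198, 73 and 11 bases before the start, and TTTGAA 30 bases before it on its own strand and 218 bases before it on the opposite strand. The CCAAT of Racgap1 begins 12 bases before the start on the opposite strand, and its TTTGAA lies just after the start. Smc2 holds CCAAT 119 and TTTGAA 145 bases before the start, and another TTTGAA after it. A match of letters is a description and shows no binding.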

How the data were processed

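The lymphH, lungH and lungL libraries were SureCell 3′ libraries from the ddSeq instrument. Ddseeker and a custom script gave the cell barcodes and kallisto (mm10, GENCODE) the gene assignments, and the authors deposited raw counts of 35849 genes for every barcode, without a cell filter. For the bulk libraries the authors aligned modified SMART-seq2 reads with STAR, quantified with RSEM and deposited TPM values, which hold no read depth per library; the methods state only a minimum depth.

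Kept cells had over 500 genes and a share under 10% in the 13 mitochondrial genes, and were fewer than by the study's minimum of more than 250 genes. Kept lymphH cells held 4045692 counts, 71.1% of the total. Cells were ranked by the score, with ties in file order, and counts were summed over each of 3 groups of cells and given per 10000, so deep cells weigh more. No test was possible with 1 library per line. The intervals shown for some levels and ratios are exact 95% intervals for counting error only, which leave out the variation between cultures and between cells. A gene was tested for size with at least 100 counts and a ratio of 1.5. The genes named were those of 28 lists, by the largest counts or ratios, and the 15 largest and 15 smallest ratios among genes with at least 300 counts, with exceptions said in the text; some withheld items are not reported here. The members, the lists and the rules were chosen with earlier results of these data known. The bulk TPM values were read as deposited and not tested.

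Alternatives were other cell filters, splits within depth bins, thinning, smaller groups, other references, averages, ratios and count filters, rescaling, doublets called with Scrublet (13 of 348 cells, 2 of them members; kept in the analysis), tie orders and the score without each gene; 4 were added after the data were seen: only deep or only shallow cells, shallower ties first, and more than 250 genes with all cells at 0 in the lower part. The procedure was tested on simulated cells. Scripts ran in Python 3.11.15 with scanpy 1.11.5 for Scrublet, scipy 1.17.1 for the intervals, matplotlib 3.10.9 for plots, and numpy 2.4.6 with pandas 2.3.3 for tables. Gene positions came from GENCODE vM21 and promoters from RefSeq.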

Additional observations from a re-analysis of the deposited data

Results flagged for a closer look

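Most barcodes of the lymphH library were left out by the filter on genes, and they carried signal of the same genes. The 2907 barcodes with at most 500 genes held 1537493 counts, and mitosis list genes made up 95.9 counts per 10000 (95% interval 94.4 to 97.5) of them. This lay above the 41.0 of the lower and the 74.98 of the middle group and below the 171 of the members. Their S phase lists stood at 53.4 counts per 10000, between the 30.8 of the lower group and the 64.3 of the middle group. Birc5 stood at 7.63 and the 6 score genes together at 5.89, against 4.51 and 2.67 in the middle group. The 33 members under 3000 counts, with 106 counts per 10000 of mitosis genes and 9.97 of Birc5, lay nearer to these barcodes than to the deep members, at 173 and 21.2. What these barcodes hold was not tested.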

How the results depend on the processing

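No paired analysis was possible because the results come from no test. The counts of 770 higher and 420 lower genes and the medians of 10.3 (mitosis lists) and 2.75 (S phase lists) were recomputed under 22 settings fixed at the start and 4 added later. With more than 250 genes they became 1554, 607, 1.17 and 1.12, a setting in which the upper group held all 229 cells of at least 5000 counts and the lower group 0. The ratios of the named genes then turned for Cdc6 0.968, Cdk6 0.646, Cdkn2c 0.985, Cenpa 0.975, Fbxo5 0.664, Fzr1 0.88, Gmnn 0.689, Hjurp 0.971, Kpna2 0.62, Lin54 0.805, Lmnb2 0.837, Mcm7 0.84, Pcna 0.80, Prc1 0.676, Spc25 0.611, Tmpo 0.929, Tubb4b 0.726 and Tubb5 0.659, and for the lower genes (and Ung) Adamts1 1.01, Anxa7 1.29, Atf3 1.36, Cyhr1 1.16, Fam19a5 1.23, Fmo1 1.14, Gadd45b 1.59, Hist1h2bc 1.75, Idh1 1.36, Insig1 1.23, Mxd4 1.29, Myc 1.44, Tob1 1.48, Trib1 1.23, Trp53inp2 1.24, Ung 3.06, Wdr6 1.31 and Zfp36l1 1.09, the kinetochore list had a median of 0.973, and the medians of the lists of mitotic kinases, transcription factors, spindle checkpoint and spindle genes fell to 1.44, 1.30, 1.16 and 1.18. With all cells at 0 put in the lower part they became 581, 264, 2.22 and 1.72, with 15 of the 15 largest and 3 of the 15 smallest ratios still past the limits and Ung at 2.53. Thinned cells gave 64, 50, 2.04 and 2.08, over the fewer genes with 100 counts. All other cells as reference gave 447, 271, 3.77 and 1.46, with Cdc6 at 0.878 and Cdt1 at 0.76. Means over cells gave 1067 higher, 828 lower, 3.67 and 2.2, with Cdc27 at 0.776. Cells under 3000 counts alone gave 19 and 22 of 192 genes, with Aldoa at 1.02 and Neat1 at 1.44. A ratio of 2 gave 306 and 73; a minimum of 30 counts 1565, 1075 and a mitosis median of 11.04; of 300 counts 227, 120, 3.67 and 2.34; no filter 2548, 2086 and 11.2. Groups made within depth bins gave medians of 8.29 and 2.52, and deep cells alone 13.1 and 2.91. The mitosis median was 12.2 with 87 cells a group, 10.6 without a mitochondrial limit, 11.2 without doublets, 9.44 with all ties in the lower group and 7.52 with shallower ties first. Without Top2a, Cenpf or Ube2c in the score it was 9.59, 9.5 and 9.82, and the S phase median without Top2a, Cenpf or Ccnb1 was 2.54, 2.61 and 2.64. Other causes of these shifts were not tested. The counts of called genes and the joint medians not given here stayed within 1.5 times or within counting error. With 1 library, the variation between cultures is unknown, and genes under 100 counts were compared only in the settings with a lower minimum or no filter.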
